A study of Mus musculus with 37 samples.

Results

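The 10 genes described here encode feedback inhibitors of mitogen-activated protein kinase (MAPK) signaling: the dual-specificity phosphatases DUSP1, DUSP2, DUSP4, DUSP5, DUSP6, DUSP10 and DUSP16, the Sprouty genes SPRY1 and SPRY2, and the Sprouty-related gene SPRED1. They were chosen by identifier, as 10 of the 60708 gene rows of the deposited count table. RNA was measured by 3′ mRNA sequencing in 37 libraries of wild-type mouse splenocytes (FVB strain), each a bulk pool of spleen cells. Naive splenocytes (2 libraries) were set beside splenocytes exposed for 48 h to RAW264.7, a mouse macrophage-like cell line, in 1 of 3 modes: culture medium taken from the macrophages (11 libraries, called medium), the macrophages themselves (12, called cells), or the macrophages after their medium had been washed away (12, called washed). Before that exposure the macrophages had been held for 72 h in hypoxia (1% oxygen) or normoxia (21% oxygen), each with or without SPP1 (osteopontin, 1 µg/mL), which gave 13 groups in all. Of these, 11 had 3 libraries, and naive and medium normoxia without SPP1 had 2. Brefeldin A, which blocks protein secretion, was added at the end of co-culture. The macrophage donor is 1 cell line, and the labels do not tie a library to a mouse or a culture, so that p-values measure the spread between these libraries.

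MAPK pathways carry signals from receptors at the cell surface to the nucleus through a chain of kinases that ends in ERK, JNK or p38. Dual-specificity phosphatases remove the activating phosphates from these last kinases, and many are themselves transcribed when the pathway is active, which closes a negative feedback loop. Sprouty and SPRED proteins act higher up, between the receptor and RAF, and dampen the ERK branch. In lymphocytes and macrophages many of these genes are known to be induced soon after receptor stimulation.

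The count table carries human gene identifiers, since the mouse reads had been aligned to the human genome (GRCh38). A gene is therefore counted only as far as its mouse 3′ end resembles the human one, and levels of different genes cannot be compared. For the same reason a low count here does not measure how much of a mouse transcript was present. Identity between the mouse and human sequences was not analysed here.

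Only DUSP6 and SPRED1 were counted deeply enough to be tested, and the 250 bases before their mouse start sites (RefSeq, GRCm38.p6) are printed because results below turn on these genes. Dusp6 lies on the plus strand at chr10:99262981-99263230 and Spred1 on the plus strand at chr2:117120821-117121070. Capitals mark CGGAAG, the core letters that ETS factors, some of them ERK targets, are known to bind, or its reverse complement CTTCCG.
Dusp6: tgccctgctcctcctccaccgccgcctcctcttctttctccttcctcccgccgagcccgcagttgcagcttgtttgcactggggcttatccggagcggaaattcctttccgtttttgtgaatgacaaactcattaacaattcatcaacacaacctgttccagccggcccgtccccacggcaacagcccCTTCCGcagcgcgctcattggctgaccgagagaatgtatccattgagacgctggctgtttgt
Spred1: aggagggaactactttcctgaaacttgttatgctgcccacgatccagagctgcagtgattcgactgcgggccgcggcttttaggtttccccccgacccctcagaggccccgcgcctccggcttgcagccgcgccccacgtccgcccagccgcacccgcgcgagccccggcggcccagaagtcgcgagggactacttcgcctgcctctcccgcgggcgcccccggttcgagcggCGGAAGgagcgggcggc
The capitals begin at position -62 from the start of Dusp6 and -17 from the start of Spred1. Of the 10 genes, 9 had a RefSeq promoter in the table used, and CGGAAG on either strand was in 2 of these 9, against 13.6% of all 32851 mouse promoters of that length. The cyclic AMP response core TGACG was in 3 of the 9 (17.8% of all), and the AP-1 site TGANTCA in 0 of the 9 (6.75% of all). A match of letters is a description and not a binding site.

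Library totals ran from 631574 to 1337314 counts, with a median of 1063211. Levels are given as CPM (counts scaled to a common library size, TMM-adjusted), and 3 counts, the limit that a count of 0 allows, correspond to 2.01 to 4.97 CPM. In a principal component analysis the first component held 33.2% and the second 12.3% of the variance. On the second component 4 libraries stood apart: washed hypoxia with SPP1 replicate 1, washed normoxia with SPP1 replicates 1 and 2, and cells hypoxia without SPP1 replicate 2. On the first component 2 medium libraries lay away from the other 9 medium libraries: hypoxia without SPP1 replicate 1 and normoxia without SPP1 replicate 3. Where leaving out these libraries changed a call, the value without them is given beside it. The labels set a minimum RNA integrity number (RIN) of 7 but also give a range of 2.5 to 9.5, with no value per library, so the part of RNA quality in these results was not tested.

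Of the 10 genes, 8 had a mean under 10 counts per library and were poorly captured. DUSP6 (ENSG00000139318.8), the cytoplasmic phosphatase specific for ERK, had a mean of 208 counts and between 15 and 720 in every library. SPRED1 (ENSG00000166068.13), which dampens RAS signaling, had a mean of 37.5 counts and between 1 and 155. These 2 passed the filter on low counts, as did 5193 identifiers in all.

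**Figure D1:**
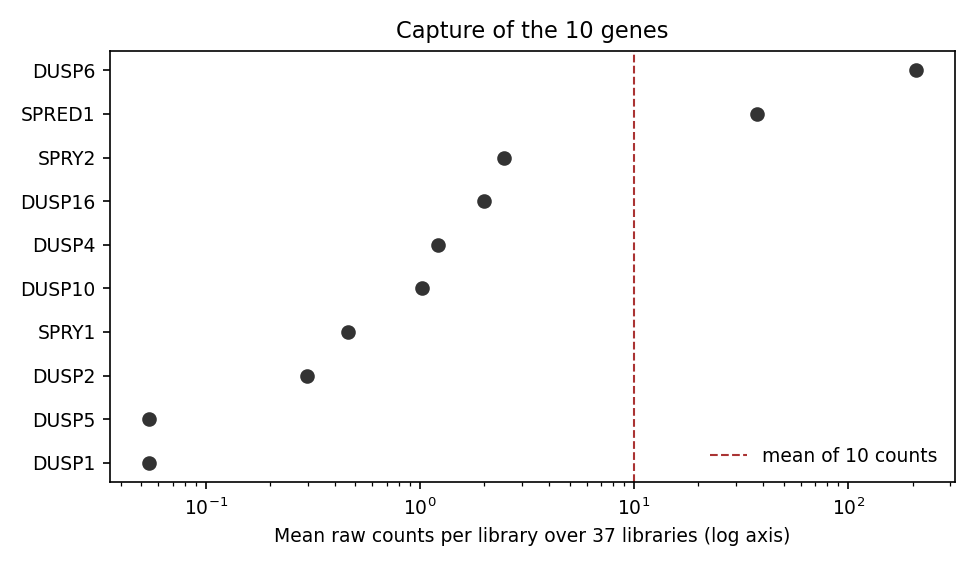
Mean raw counts per library over all 37 libraries for each of the 10 genes, on a log axis, with a dashed line at 10 counts. DUSP6 (208) and SPRED1 (37.5) lie to the right of the line, and the other 8 genes lie between 0.054 and 2.46.

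The nuclear, inducible phosphatases were close to uncounted. DUSP1, which acts on p38, JNK and ERK, had 2 counts in all 37 libraries together, and DUSP5, a nuclear ERK phosphatase, also had 2. DUSP2 had 11 counts, spread over 7 libraries. These counts are too few to set groups against each other.

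DUSP4 (ENSG00000120875), another nuclear phosphatase, had 45 counts in all. Summed over the libraries of a mode, it had 4 counts in medium, 11 in cells, 30 in washed and 0 in naive. As CPM of the summed, unscaled totals, washed held 2.38 (exact Poisson 95% interval 1.61 to 3.40) and medium 0.337 (0.0919 to 0.864), which cover counting error only. The washed interval lay above that of medium, and no library held more than 5 counts.

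Of the phosphatases for JNK and p38, DUSP16 (ENSG00000111266) had 74 counts and DUSP10 had 38. DUSP16 was at 0.675 CPM of the summed totals in medium (0.291 to 1.33), 1.88 in cells (1.23 to 2.75) and 2.94 in washed (2.07 to 4.05). Its interval in washed was again above that in medium. DUSP10 had 9 counts in medium, 10 in cells and 9 in washed. A further 10 were in naive, all in 1 library, replicate 2, so that the high naive level of DUSP10 rests on that library.

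SPRY2 (ENSG00000136158), a Sprouty inhibitor of receptor tyrosine kinase signaling, had the most counts of the poorly captured genes, 91 in all. It was at 2.02 CPM of the summed totals in medium (1.30 to 3.01), 2.45 in cells (1.70 to 3.43) and 2.30 in washed (1.54 to 3.31), intervals that overlap one another. SPRY1 had 17 counts, of which 11 were in washed, 4 in cells and 2 in medium.

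Fitted with every identifier that had a count, 3 of the 8 poorly captured genes were called between washed and medium, where 14.2% of all 22657 identifiers were called. These were DUSP4 (adjusted p = 0.000254), DUSP16 (0.000229) and SPRY1 (0.0377), by edgeR's quasi-likelihood test with Benjamini-Hochberg adjustment, and all 3 were higher in washed. DUSP16 was also higher in cells than in medium (adjusted p = 0.00982 in the same edgeR test, with 10.7% of identifiers called). DUSP10 was called lower than naive in medium (0.00929, 7.45% called) and in washed (0.0137, 7.36% called), again by edgeR and on the counts of 1 naive library. None of these 4 genes passed the filter, and 3 of them had a mean of 1.22 counts or less. The genes remain poorly captured, so these calls are not read as differences between the modes.

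Over all 13 groups at once, DUSP6 differed (F = 7.87, edgeR quasi-likelihood adjusted p = 6.56e-06), and so did SPRED1 (F = 18.0, adjusted p = 7.22e-10). Both tested genes were thus called, where 53.6% of the 5193 tested identifiers were. In order of its group means, DUSP6 was highest in the 4 medium groups, then the 4 cells groups, the 2 washed groups without SPP1, naive, and the 2 washed groups with SPP1. Neighbouring groups overlapped in range at all 12 steps of this order. SPRED1 also began with the 4 medium groups, but was followed by the 2 cells groups after hypoxia and then naive, with the washed and the normoxic cells groups at the bottom. Its neighbours overlapped at 11 of 12 steps. The exception was medium hypoxia with SPP1 (126 ± 5.63 CPM, SD, n = 3) against the next group, medium normoxia with SPP1 (81.4 ± 31.2, n = 3), with 8.84% of tested identifiers separated upwards between the same groups. The lowest library of the first was at 120 CPM and the highest of the second at 117 CPM.

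**Figure D2:**
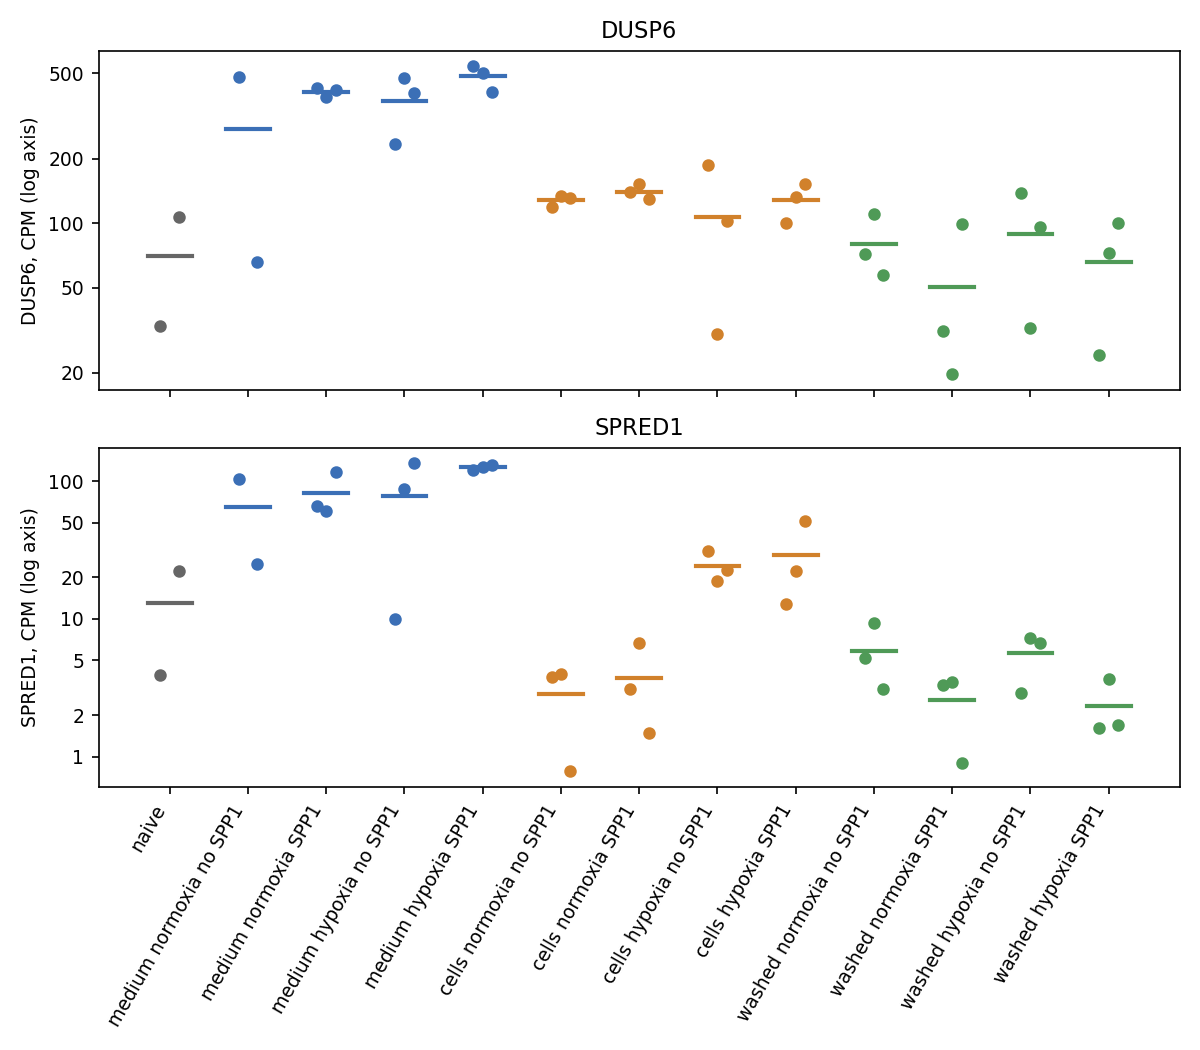
Levels of DUSP6 (top) and SPRED1 (bottom) in CPM on log axes, with 1 point per library and a bar at the mean of each of the 13 groups. DUSP6 averages 395 CPM in medium against 126 in cells and 70.9 in washed, and SPRED1 in cells averages 26.6 CPM after hypoxia against 3.31 after normoxia.

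The first comparison asked how each mode of exposure differed from naive splenocytes. DUSP6 was at 33.2 and 107 CPM in the 2 naive libraries and had a lowest, median and highest value of 65.6, 418 and 540 CPM in the 11 medium libraries. Of the medium libraries, 10 lay above both naive ones. SPRED1 was at 3.90 and 22.1 CPM in naive and at 10.0, 104 and 135 CPM in medium, and here too 10 of 11 lay above both.

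Both genes were higher in medium than in naive. No exposure time is given for the naive libraries, and the labels do not say whether they were cultured. Every other group was exposed to macrophages or their medium. Time in culture and the exposure therefore cannot be told apart in any comparison with naive. DUSP6 was higher than naive by 2.45 on the log2 scale (SE 0.627, edgeR adjusted p = 0.00308) and SPRED1 by 2.75 (SE 0.702, adjusted p = 0.00294), so both tested genes were called, where 17.1% of tested identifiers were called higher. The median of all identifiers in this comparison was 0.11. Without naive replicate 1 neither was called, with DUSP6 higher by 1.88 (edgeR adjusted p = 0.0756) and SPRED1 by 1.99 (adjusted p = 0.0831). Without naive replicate 2 the differences were 3.48 (edgeR adjusted p = 0.0114) and 4.37 (adjusted p = 0.00771). Either fit leaves 1 naive library, which is assumed to vary like the libraries of the other groups.

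The cells and washed modes share these naive libraries, and neither gene was called in them over all 37 libraries. DUSP6 had a lowest, median and highest value of 30.4, 132 and 186 CPM in the 12 cells libraries and of 19.7, 72.0 and 138 CPM in the 12 washed ones. Both ranges take in the naive values. Its log2 differences from naive were 0.85 (SE 0.567, edgeR adjusted p = 0.280) and 0.02 (SE 0.543, adjusted p = 0.981), where 27.3% and 34.5% of tested identifiers were called. Without the 6 libraries apart DUSP6 was called higher than naive in cells (1.02). It was also called when every identifier with a count was fitted (1.05, SE 0.345, edgeR adjusted p = 0.0418). With 1 naive library left, this difference was 0.31 without naive replicate 1 and 1.90 without naive replicate 2. SPRED1 was at 0.783, 9.73 and 51.6 CPM in cells and at 0.908, 3.39 and 9.30 CPM in washed. Its log2 differences from naive were -0.42 (SE 0.666, edgeR adjusted p = 0.682) and -1.71 (SE 0.714, adjusted p = 0.0605). The washed difference of SPRED1 was called without the 2 medium libraries apart (-1.66, edgeR adjusted p = 0.0203), without all 6 (-1.92, adjusted p = 0.0146) and with DESeq2 (-1.91, adjusted p = 0.0201). It was also called without washed normoxia without SPP1 replicate 2 (-1.82, edgeR adjusted p = 0.0485). With 1 naive library left, this difference was -2.44 without naive replicate 1 and -0.052 without naive replicate 2. Its size thus depends on which naive library is kept.

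The next comparison set macrophages against their medium alone. DUSP6 averaged 395 ± 135 CPM in medium (SD, n = 11), 126 ± 37.8 in cells (n = 12) and 70.9 ± 38.5 in washed (n = 12). The 2 medium libraries that stood apart held 65.6 and 234 CPM and the other 9 between 387 and 540. Over all 11 libraries the medium range overlapped those of cells and washed. DUSP6 was lower than in medium by a log2 difference of -1.59 in cells (SE 0.282, edgeR adjusted p = 1.65e-05) and of -2.42 in washed (SE 0.292, adjusted p = 1.23e-08).

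SPRED1 fell further. It averaged 89.4 ± 43.5 CPM in medium (SD, n = 11), 14.9 ± 15.3 in cells (n = 12) and 4.09 ± 2.54 in washed (n = 12). No washed library reached the lowest medium library, a separation downwards that 3.62% of tested identifiers showed. Its log2 difference from medium was -3.18 in cells (SE 0.341, edgeR adjusted p = 2.06e-09) and -4.46 in washed (SE 0.381, adjusted p = 6.54e-12). The washed libraries held 1 to 10 counts of SPRED1 each, and their mean lay within the 2.01 to 4.97 CPM of 3 counts. The size of the washed fold is therefore uncertain.

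Both tested genes were thus lower than in medium in both modes, where 25.3% of identifiers were called lower in cells and 30.2% in washed. Of all tested identifiers, 0.905% had a larger absolute fold than SPRED1 between cells and medium and 0.963% between washed and medium. For DUSP6 these shares were 8.32% and 4.70%. The washed share of SPRED1 rests on its low washed counts. Without the 6 libraries apart all 4 calls were kept, and DUSP6 averaged 449 ± 51.9 CPM in medium (n = 9) and 86.2 ± 31.3 in washed (n = 9). In bulk samples fewer cells of a type and less RNA per cell cannot be told apart, and neither can splenocyte RNA and RNA of macrophages collected with them.

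Washed and unwashed macrophages were then compared. Pooled over oxygen and SPP1, DUSP6 was lower in washed by a log2 difference of -0.83 (SE 0.282, edgeR adjusted p = 0.0644) and SPRED1 of -1.29 (SE 0.459, adjusted p = 0.0772), and neither was called, where 7.24% of identifiers were. Both were called without the 2 medium libraries apart (edgeR adjusted p = 0.0340 for DUSP6 and 0.0224 for SPRED1) and without all 6 (-0.60, adjusted p = 0.0446, and -1.60, adjusted p = 0.0289). SPRED1 was also called with DESeq2 (adjusted p = 0.0259) and in an edgeR fit of the compared groups alone (0.0365). With every identifier that had a count both were called (edgeR adjusted p = 0.000280 for DUSP6 and 0.0139 for SPRED1). That fit had nearly the same folds and smaller SEs (0.170 and 0.342). Its calls thus reflect a smaller estimated spread and not a larger difference. The difference of DUSP6 was called without any 1 of 4 libraries: washed normoxia with SPP1 replicate 3 (-1.06, edgeR adjusted p = 0.00945), cells hypoxia without SPP1 replicate 2 (0.0180), washed hypoxia with SPP1 replicate 3 (0.0336) and washed hypoxia without SPP1 replicate 1 (0.0383). Most alternatives gave no call for washed against cells, 26 of 33 for DUSP6 and 28 of 33 for SPRED1. All 24 fits without a single library left SPRED1 uncalled. After hypoxia SPRED1 was at 12.8, 18.7, 22.4, 22.7, 31.2 and 51.6 CPM in the cells libraries and between 1.61 and 7.30 CPM in the washed ones. These ranges were apart, a separation downwards shown by 1.25% of identifiers. The raw counts were 16 to 63 in the cells libraries and 1 to 7 in the washed ones. SPRED1 was lower in washed by a log2 difference of -2.81 (SE 0.551, edgeR adjusted p = 0.00183), with 1.33% of identifiers called lower. Without the 4 libraries apart it was -2.83 (edgeR adjusted p = 0.00561).

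After normoxia SPRED1 was at 3.31 ± 2.10 CPM in cells (SD, n = 6) and 4.21 ± 2.84 in washed (n = 6), overlapping ranges with a log2 difference of 0.24 (SE 0.719, edgeR adjusted p = 0.905). DUSP6 was called in neither setting, with log2 differences of -0.60 after hypoxia (SE 0.397, edgeR adjusted p = 0.540) and -1.06 after normoxia (SE 0.401, adjusted p = 0.140), where 1.62% and 1.29% of identifiers were called. The normoxic difference of DUSP6 was called without washed normoxia with SPP1 replicate 3 (-1.53, edgeR adjusted p = 0.0186) and in a fit of the compared groups alone (-1.05, adjusted p = 0.0273). With every identifier that had a count it was also called, at a smaller SE (-1.07, SE 0.242, edgeR adjusted p = 0.00302).

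**Figure D3:**
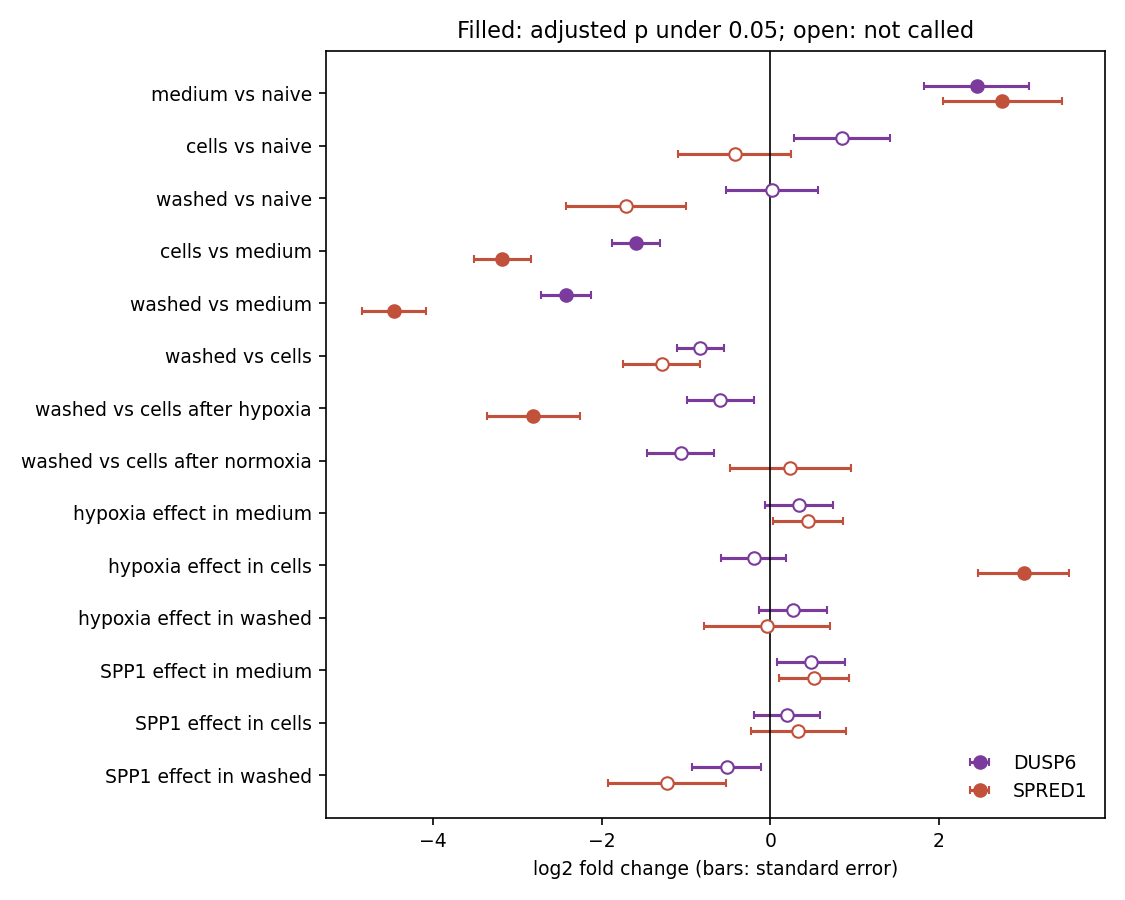
Log2 fold changes of DUSP6 and SPRED1 in 14 comparisons from the edgeR fit, with bars for the standard error and filled points where the adjusted p was under 0.05. In cells the hypoxia effect is 3.01 for SPRED1 and -0.20 for DUSP6.

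Oxygen during the macrophage culture was the next comparison, and it set the 2 genes apart in the cells mode. SPRED1 in cells was at 12.8, 22.4 and 51.6 CPM after hypoxia with SPP1 and at 31.2, 18.7 and 22.7 CPM after hypoxia without it. After normoxia it was at 3.09, 6.71 and 1.48 CPM with SPP1 and at 3.81, 3.999 and 0.783 CPM without. Every hypoxic library lay above every normoxic one, a separation upwards shown by 2.45% of tested identifiers. In raw counts this was 16 to 63 against 1 to 8.

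SPRED1 rose by 3.01 on the log2 scale (SE 0.539, edgeR adjusted p = 0.000412), where 2.72% of identifiers were called higher, and 1.06% of identifiers had a larger absolute fold. Without the 4 libraries apart the rise was 3.11 (edgeR adjusted p = 0.000478). DUSP6 in the same 12 libraries ranged from 30.4 to 186 CPM after hypoxia and from 119 to 152 CPM after normoxia, overlapping ranges with a log2 difference of -0.20 (SE 0.389, edgeR adjusted p = 0.841). The lowest of these, 30.4 CPM, was in the cells library that stood apart, and without the 4 libraries apart on the second component DUSP6 averaged 135 ± 36.1 CPM after hypoxia (n = 5).

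In medium and in washed neither gene was called for oxygen, where 0.077% and 0.0385% of identifiers were. SPRED1 in medium averaged 102 ± 48.0 CPM (SD) over 6 hypoxic libraries and 74.6 ± 36.7 over 5 normoxic ones, a log2 difference of 0.45 (SE 0.417, edgeR adjusted p = 0.896). In washed it was at 3.97 ± 2.47 CPM (n = 6) and 4.21 ± 2.84 (n = 6), with a log2 difference of -0.04 (SE 0.744). The washed libraries held 1 to 10 counts of SPRED1 each. DUSP6 had log2 differences of 0.34 in medium (SE 0.402, edgeR adjusted p = 0.919) and 0.27 in washed (SE 0.406, adjusted p = 0.903).

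Tested as a difference, the hypoxia effect on SPRED1 in cells minus that in medium was 2.56 (SE 0.682, edgeR adjusted p = 0.0840), and in washed minus that in cells it was -3.05 (SE 0.945, adjusted p = 0.333). Of all identifiers 0.481% and 0.173% were called. For SPRED1 neither difference passed the threshold in this fit, and both calls depended on the fit. With DESeq2 both were called (2.57, adjusted p = 0.0383, and -3.11, adjusted p = 0.0417). With every identifier that had a count both were called in edgeR (adjusted p = 0.000415 and 0.0104), at smaller SEs of 0.513 and 0.703. The first was also called without the 2 medium libraries apart (2.62, edgeR adjusted p = 0.00964) and without all 6 (2.71, adjusted p = 0.00210). It was further called without medium hypoxia without SPP1 replicate 3 (edgeR adjusted p = 0.0270). With 1 library left in medium normoxia without SPP1, it was 2.89 without replicate 3 and 1.87 without replicate 2. No single left-out library gave a call for washed minus cells, at -3.38 to -2.69. Without all 6 that difference was -2.43.

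Set against DUSP6 within the same library, SPRED1 had 27.4 ± 18.3 counts per 100 DUSP6 counts in cells after hypoxia (SD, n = 6) and 2.43 ± 1.41 after normoxia (n = 6). The ranges, 12.8 to 61.5 and 0.599 to 4.42, did not overlap. The ratio was higher after hypoxia by 3.55 on the log2 scale (two-sided exact permutation p = 0.00216, the smallest that 6 against 6 allows, adjusted over 3 tests 0.00649). In washed after hypoxia it was lower than in cells after hypoxia by a log2 difference of -2.19 (exact permutation p = 0.0108, adjusted 0.0162), and between washed hypoxia and washed normoxia it differed by -0.27 (exact permutation p = 0.758). This ratio was chosen after the values were seen, and the adjustment over 3 tests does not cover that choice. It uses the same SPRED1 counts as the comparisons above and is not further support for them.

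SPP1 during the macrophage culture was compared within each mode. DUSP6 was at 447 ± 59.6 CPM with SPP1 (SD, n = 6) and 333 ± 180 without (n = 5) in medium, 134 ± 19.3 and 117 ± 50.9 in cells (n = 6 each), and 57.7 ± 37.3 and 84.0 ± 38.1 in washed (n = 6 each). The ranges overlapped in every mode. The log2 differences were 0.48 in medium (SE 0.403, edgeR adjusted p = 0.758), 0.20 in cells (SE 0.389) and -0.52 in washed (SE 0.406, adjusted p = 0.695). All 3 changed sign without the libraries that stood apart in that mode.

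SPRED1 was at 104 ± 31.6 CPM with SPP1 (SD, n = 6) and 72.3 ± 53.0 without (n = 5) in medium, at 16.3 ± 18.9 and 13.5 ± 12.4 in cells (n = 6 each), and at 2.44 ± 1.18 and 5.74 ± 2.50 in washed (n = 6 each). Its log2 differences were 0.52 in medium (SE 0.417, edgeR adjusted p = 0.750), 0.33 in cells (SE 0.566) and -1.23 in washed (SE 0.700, adjusted p = 0.576). Neither gene was called for SPP1 in any mode. Among all tested identifiers 0.25% were called in medium and 0.0193% in washed, and 0 were in cells by edgeR or DESeq2, where 87 and 89 had an unadjusted p under 0.05.

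**Figure D4:**
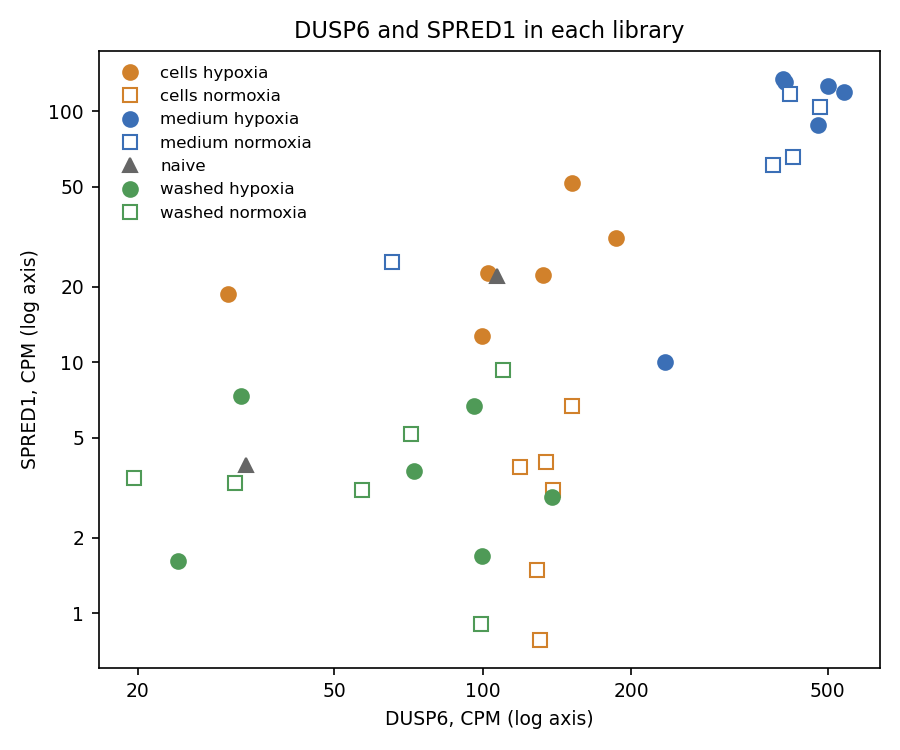
DUSP6 against SPRED1 in each of the 37 libraries, in CPM on log axes, colored by mode, with filled circles for hypoxia, open squares for normoxia and triangles for naive. The cells libraries span 0.783 to 51.6 CPM of SPRED1 and split by oxygen, with DUSP6 at 30.4 to 186 CPM.

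Across all 37 libraries the 2 genes had a Pearson correlation of 0.731 on log2 CPM with a prior count of 2. It is given as a description, since the libraries fall into the modes. The values within modes below are on log2(CPM + 1). Within medium Pearson's r was 0.692 (permutation p = 0.0669, adjusted over 3 modes 0.201) and Spearman's rho 0.482 (permutation p = 0.138), over 11 libraries. It was 0.314 without the 2 medium libraries that stood apart, so it rests on them. Within cells r was -0.119 (permutation p = 0.787) and within washed 0.0432 (permutation p = 0.893), over 12 libraries each.

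The identifiers whose levels over the 37 libraries were most like the mean profile of DUSP6 and SPRED1 were ENSG00000149428.19 (r = 0.956) and ENSG00000167553.16 (r = 0.928), out of 5191. Their symbols are not given by the sources used here. The first averaged 1552 ± 643 CPM in medium (SD, n = 11), 372 ± 62.8 in cells (n = 12), 259 ± 85.1 in washed (n = 12) and 440 ± 96.2 in naive (n = 2). The second averaged 1654 ± 645, 366 ± 167, 209 ± 97.6 and 453 ± 87.1 CPM in the same order. Both were highest in medium and lowest in washed. With RLE scaling the second ranked 3 (r = 0.931), and by Spearman correlation 6 (0.868), while the first ranked 1 in both.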

How the data were processed

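Splenocyte RNA was converted to QuantSeq 3′ libraries with unique molecular identifiers; whether these were used in counting is not given in the sources used here. The authors deposited raw counts per gene, from reads aligned to GRCh38 (hg38 in the submitters' processing notes). Mouse reads were thus counted on human genes. Groups came from the sample labels. Counts were fitted in edgeR 4.0.16 (R 4.3.3) by the quasi-likelihood method over all 37 libraries and 13 groups, after a filter at a minimum count of 10 and TMM scaling, with 18 contrasts and 1 joint test; p-values were adjusted by Benjamini-Hochberg and called under 0.05. The study's methods name no test for these libraries. The scripts were tested on simulated data. DESeq2 1.42.0, RLE scaling, other filters, a replicate block and left-out libraries were alternatives. Total counts ran from 631574 to 1337314 per library, and intervals cover counting error only. Members and lists were chosen with earlier results of these data known. Identifiers named beside the 10 genes were those with the highest correlation to the mean z-scored profile of the tested members. Pathway and cell type marker lists, and a check of the splenocyte label, were not analysed here, since 0 identifiers matched the gene names at hand. Correlations within modes used 100000 resamples.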

Additional observations from a re-analysis of the deposited data

Results flagged for a closer look

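Of 24 sets of 4 to 10 libraries examined for a library far from the rest, 1 met the criterion, and chance marks about 1 in 20 such sets. DUSP6 in medium normoxia without SPP1 replicate 3 was at 65.57 CPM. The next library of that mode and oxygen was at 386.6 CPM and the highest at 481.5 CPM, so that the gap was 0.772 of the range over 5 libraries. It is 1 of the 2 medium libraries that stood apart on the first principal component.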

How the results depend on the processing

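Of 214 alternative values of called fold changes, 212 stayed called in the same direction and 2 lost the call, both without naive replicate 1. Left-out libraries gave 1 to 3 of the 10 genes called for medium vs naive, 0 to 1 for cells vs naive, 0 to 2 for washed vs naive, and 0 to 1 for washed vs cells, for washed vs cells after normoxia and for the hypoxia effect in cells minus in medium. With every identifier that had a count, the genes called were 3 for medium vs naive and 3 for cells vs medium, 1 for cells vs naive, 1 for washed vs naive, 5 for washed vs medium, 2 for washed vs cells, 1 after normoxia, 1 and 1 for the hypoxia effect in cells minus in medium and in washed minus in cells, and 4 over the 13 groups, while the remaining comparisons had the same number as with the filter. Of all 22657 identifiers in that fit, 7.45% were called for medium vs naive, 7.36% for washed vs naive and 10.7% for cells vs medium. For washed vs medium the share was 14.2%, and over the 13 groups 13.2%. The share of all identifiers was not set beside the other numbers in this section, so they are not read as results about these genes. Washed vs naive had 1 under RLE scaling, a minimum count of 30 and DESeq2 (SPRED1 in each). DESeq2 also gave 1 for washed vs cells and for either hypoxia difference, and a fit of only the groups compared gave 1 for washed vs cells and 1 after normoxia. These were chosen after seeing the data: without the 4 libraries apart on the second component, cells vs naive and washed vs naive had 1 each (DUSP10, from 1 naive library). Without the 2 medium libraries the numbers were 2 for washed vs naive, 2 for washed vs cells and 1 for the hypoxia effect in cells minus in medium. Without all 6 they were 2 for cells vs naive, 2 for washed vs naive, 2 for washed vs cells and 1 for that hypoxia difference, with DUSP10 among those against naive. Some groups then hold 1 library, assumed to vary like the others.

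No called value changed sign. DUSP6 in washed vs naive was -0.12 with RLE, -0.076 at a minimum count of 30, -0.15 with DESeq2 and -0.016 with only the groups compared. Without the 4 and without the 6 libraries, DUSP6 was 0.038 and 0.021 for hypoxia in cells, -0.023 and -0.024 in washed, -0.016 and -0.025 for SPP1 in cells and 0.16 and 0.12 in washed, and SPRED1 was -0.39 and -0.39 for washed vs cells after normoxia and 0.67 and 0.66 for hypoxia in washed. Without the 2 and without the 6, SPP1 in medium was -0.031 and -0.057 for DUSP6 and -0.07 and -0.099 for SPRED1. Leaving out single libraries gave DUSP6 -0.51 to 1.10 in washed vs naive, -0.054 to 1.39 for hypoxia in medium, -0.53 to 0.019 in cells and -0.023 to 0.53 for SPP1 in cells, and SPRED1 -1.17 to 1.21 in cells vs naive, -0.0079 to 0.57 in washed vs cells after normoxia, -0.32 to 0.20 for hypoxia in washed and -0.027 to 0.53 for SPP1 in cells. The cause was not tested.

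The replicate block changed no call of DUSP6 or SPRED1 (SPRED1 3.04 for hypoxia in cells, DUSP6 -1.57 for cells vs medium). Deviations from the group means had a median correlation of 0.0044 over 187 pairs with the same number and 0.00067 over 374 pairs with different numbers. Of these pairs 35 and 62 were above 0.1. Of 35 libraries, 16 correlated best with their own number, 1 of 3 possible. Whether libraries with the same number belong together cannot be told from these values.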
